A study of Mus musculus with 8 samples.

Results

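Ion channels and transmitter receptors were examined in cells of the oligodendrocyte lineage. Transcripts were chosen by gene symbol alone, from the families of potassium channels (Kcn), voltage-gated sodium channels (Scn), calcium channel subunits (Cacn), ionotropic glutamate receptors (Gria, Grik, Grid and Grin), metabotropic glutamate receptors (Grm), GABA-A receptors (Gabr), TRP channels (Trpc, Trpm and Trpv), ClC chloride channels (Clcn), HCN channels (Hcn), P2X and P2Y purine receptors (P2rx and P2ry) and anoctamins (Ano). The choice gave 141 of the 10987 listed transcripts, 1 for each gene symbol. The symbol rule uses no measured value. Symbols alone also kept 2 members that are no channel or receptor subunits, among them Trpc4ap, which binds a channel.

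Footprints of ribosomes and total RNA were measured in mouse oligodendrocyte progenitor cells (OPCs) and in the oligodendrocytes (OLs) made from them, with 2 cultures of each, which gave 8 libraries. OPCs of the strain 129S/SvEv were derived from epiblast stem cells, pluripotent cells of the early embryo, and were grown with bFGF and PDGFA. For OLs, the cells were first passaged without bFGF and then given a medium with noggin, IGF-1, cyclic AMP, NT3 and thyroid hormone (T3), and cells were collected after 3 days. The plates of a culture were pooled at lysis, the RNA-seq and footprint libraries of a culture came from the same lysate, and by the study's own account a population of the OL cultures remained undifferentiated. Libraries are named here by cell type and replicate number, and where a pair of values is given, replicate 1 comes before replicate 2. Values are FPKM, fragments scaled to the number of mapped reads and taken per length of transcript for RNA-seq and per length of coding sequence (CDS) for footprints.

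OPCs are unusual among glia in that they receive synaptic input from neurons, through AMPA and GABA-A receptors, and carry voltage-gated sodium, calcium and potassium channels. As they mature, cells of the lineage are known to lose most of the sodium channels and delayed rectifier potassium currents and to gain inward rectifiers, with Kir4.1 (encoded by Kcnj10) clearing potassium that active axons release. Transmembrane AMPA receptor regulatory proteins (TARPs, of the Cacng family) set the trafficking and gating of AMPA receptors, and kainate, metabotropic glutamate and purine receptors carry further signals from axons to the lineage.

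Potassium channels were the largest group, with 54 of the 141 members, and several of them carry the results below. Their pores share a short signature, the selectivity filter. The reading frame of each CDS (Gencode vM21, GRCm38) was searched on the coding strand for codons that can encode this filter: one starting AC, one with T in the middle, one starting GG, one starting TA and one starting GG. The 15 letters were found in 36 of the 54 Kcn members, in none of the other members, and in 42 (0.382%) of the 10985 listed transcripts with a whole CDS. The windows of 6 members that passed a test in the comparison of OLs with OPCs are shown because genes that rose (Kcna1, Kcna2, Kcna6 and Kcnd2) and genes that fell (Kcnc4 and Kcnj16) in RNA-seq both carry the codons. Matching bases are in capitals, with the flanking 15 bases on each side in lower case.
Kcna1: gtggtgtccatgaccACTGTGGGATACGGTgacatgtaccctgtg
Kcna2: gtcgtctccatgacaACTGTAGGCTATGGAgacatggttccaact
Kcna6: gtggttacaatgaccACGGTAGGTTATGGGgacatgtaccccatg
Kcnc4: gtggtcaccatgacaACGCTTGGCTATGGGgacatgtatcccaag
Kcnd2: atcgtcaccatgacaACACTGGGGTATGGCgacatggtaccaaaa
Kcnj16: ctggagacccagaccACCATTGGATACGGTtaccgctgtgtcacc

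The capitals stand at CDS bases 1114 to 1128 in Kcna1, 1120 to 1134 in Kcna2, 1264 to 1278 in Kcna6, 1318 to 1332 in Kcnc4 and 1108 to 1122 in Kcnd2. In the shorter inward rectifier Kcnj16 they stand at 391 to 405. A match describes the sequence and measures nothing about the channel.

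Channel and receptor transcripts were scarce. The median member had between 0.286 and 0.524 FPKM in the 4 RNA-seq libraries, against 5.45 to 7.41 FPKM for all listed transcripts. Between 20.6% and 38.3% of members were listed at 0 in an RNA-seq library and between 33.3% and 66.0% in a footprint library, against 9.48% to 18.2% and 14.7% to 31.1% of all listed transcripts. In both kinds of library OL replicate 2 had the highest share at 0 and the lowest estimated depth, 77.9 Mb of aligned bases in RNA-seq and 93.1 Mb in footprints. The deepest libraries had 241 Mb and 249.5 Mb. Only 38 members were above 0 in all 8 libraries. Kcna1 had the highest single value of the members in RNA-seq, 100.1 FPKM, and in footprints, 153 FPKM, both in OL replicate 1, and in RNA-seq of OPCs the highest was Grm5 with 49.3 FPKM.

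**Figure D1:**
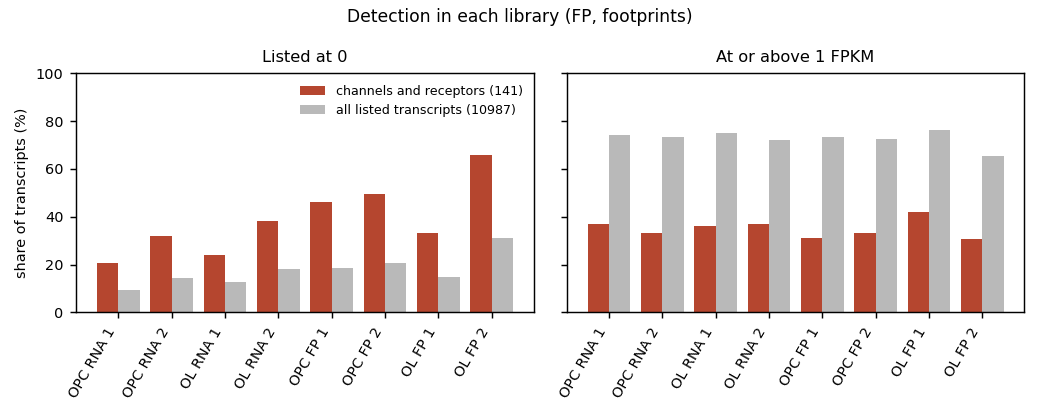
Share of transcripts listed at 0 (left) and at or above 1 FPKM (right) in each library, in percent, for the 141 channel and receptor transcripts (red) and all 10987 listed transcripts (grey). In every library a larger share of the channel and receptor transcripts was at 0, up to 66.0% in footprints of OL replicate 2.

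Markers were read beside the members. Of the 10 oligodendrocyte markers tested in RNA-seq, 9 were higher in OLs, and their summed level went from between 49.5 and 51.0 FPKM in OPCs to between 3653 and 4082 FPKM in OLs. Of 8 genes listed as OPC markers, 5 were higher in OLs (Gpr17, Sox10, Lhfpl3, Pdgfra and Sox6) and none passed as lower. Whether these genes are limited to OPCs was not tested. Pdgfra stood at 53.5 and 31.3 FPKM in OPCs against 105 and 101 FPKM in OLs. Of 7 astrocyte markers 3 were higher and 1 lower in OLs, and their sum was 403 to 443 FPKM in OPCs and 971 to 1096 FPKM in OLs. The rise of this sum lay in S100b, at 20.6 and 12.6 FPKM in OPCs against 675 and 633 FPKM in OLs. Gfap stood at 0.155 and 0 FPKM in OPCs against 14.2 and 2.11 FPKM in OLs. Of 9 neuron markers tested, Dcx and Tubb3 were higher in OLs, the sum was 126 to 138 FPKM in OPCs and 194 to 216 FPKM in OLs, and Rbfox3 was listed at 0 in all 4 footprint libraries. The single microglia marker and the 3 vascular or mural markers in the files were under 1 FPKM in every library. In bulk RNA, a change in the number of cells of a type and a change in the RNA per cell cannot be told apart.

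Between OLs and OPCs, with all cultures in the fit, more channel and receptor transcripts were higher than lower in OLs. The minimum of 1 FPKM on average over the 4 libraries of a kind was passed by 56 members in RNA-seq and 49 in footprints, and 83 of the 141 passed in neither. In RNA-seq 14 members were higher and 8 lower in OLs at an adjusted p-value under 0.05. The test was limma on log2(FPKM + 0.1) without pairing of cultures, with Benjamini-Hochberg adjustment over all 8346 transcripts tested. Of all transcripts tested, 13.0% were higher and 20.2% lower, so the members' shares were 25.0% and 14.3%. In footprints 17 members were higher and 3 lower, where 12.8% of all 8342 transcripts tested were higher and 10.8% lower. The median difference, OL minus OPC on the log2(FPKM + 0.1) scale, was 0.32 over the 56 members and -0.23 over all transcripts in RNA-seq. It was 0.73 over the 49 members and -0.16 over all transcripts in footprints, and 0.72 over the 46 members left when Kcng1, Kcnip2 and Kcnj13, listed at 0 in a whole group, were set aside. The same cultures gave both kinds of library, and 14 members passed in both, 12 higher and 2 lower. A further 8 passed in RNA-seq alone and 6 in footprints alone.

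These counts and their split rest on single cultures, and p-values measure only the spread between these cultures. Without OPC replicate 1 or 2, which left 1 OPC culture, most members lost their call in RNA-seq and all did in footprints. So did most of all transcripts in RNA-seq and every transcript in footprints. The members' median difference was then 0.50 and 0.14 in RNA-seq and 0.65 and 0.82 in footprints, in the order of the replicate left out. Without OL replicate 1 the split turned in RNA-seq, to 10 members higher and 11 lower, and in footprints it was 13 and 12, where 882 of all transcripts were higher and 2128 lower. With median-ratio scaling of the libraries, the median of all transcripts in RNA-seq moved by 0.18 to -0.05 and the members' split from 14 higher and 8 lower to 18 and 6. The split of all transcripts turned as well, from 1083 higher and 1689 lower to 1344 and 1264. All 22 members called in RNA-seq and all 20 called in footprints kept their sign under each alternative tried. Without a trend in the variance, the calls of Clcn6, Kcnd2, Kcnd3, Kcnip3 and Kcnmb4 in RNA-seq and of Cacng7, Clcn7, Grm5, Kcnip3, Kcnj10 and Trpc4ap in footprints were lost, and other minimums or median-ratio scaling ended those of Clcn6, Kcnd3 and Kcnh2 in RNA-seq and of Clcn7, Kcnj13 and Trpc4ap in footprints.

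**Figure D2:**
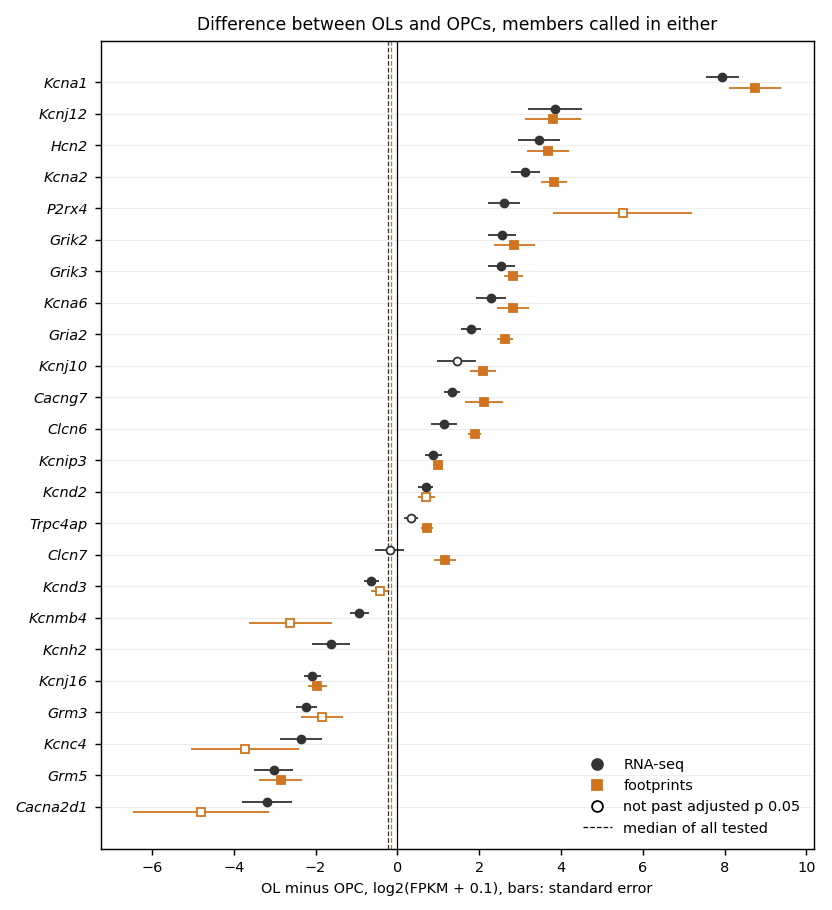
Difference between OLs and OPCs on the log2(FPKM + 0.1) scale for 24 of the 28 members called in RNA-seq (circles) or footprints (squares), with bars of 1 standard error from limma. Open symbols did not pass an adjusted p of 0.05, dashed lines are the medians of all tested transcripts (-0.23 and -0.16), and the 3 members listed at 0 in a whole group are among those left out. Kcna1 has the highest value in both kinds, at 7.95 and 8.75.

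The Shaker-type (Kv1) potassium channels held the largest difference. Kcna1, which encodes Kv1.1, a delayed rectifier known from the juxtaparanodes of myelinated axons, had 0.193 and 0.212 FPKM of RNA in OPCs against 100.1 and 55.5 FPKM in OLs. Its footprints stood at 0.421 and 0.0973 FPKM in OPCs against 153 and 124 FPKM in OLs. Both OL cultures were far above both OPC cultures, where an estimated 6.3 and 4.7 reads lay behind the RNA values. The log2 difference was 7.95 (standard error 0.40, adjusted p = 0.000382) in RNA-seq and 8.75 (standard error 0.63, adjusted p = 0.00634) in footprints. Among members Kcna1 went from rank 79 by mean RNA level in OPCs to rank 1 in OLs, at the 93.9th percentile of all listed transcripts.

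Kcna2, encoding the partner subunit Kv1.2, rose from 3.36 and 2.62 FPKM of RNA in OPCs to 35.5 and 19.9 FPKM in OLs. Its footprints rose from 4.31 and 3.10 to 60.7 and 47.3 FPKM. The log2 differences were 3.12 and 3.84 (adjusted p = 0.00286 and 0.00737), with no overlap between the groups. Kcna6, encoding Kv1.6, had 1.64 and 1.56 FPKM of RNA in OPCs against 9.65 and 6.92 FPKM in OLs, and 3.60 and 3.49 FPKM of footprints in OPCs against 32.8 and 20.5 FPKM in OLs. It also rose in both, by 2.28 (standard error 0.37, adjusted p = 0.00780) and 2.84 (standard error 0.39, adjusted p = 0.0168). All of the Kcna6 CDS overlaps Gm26673, which is transcribed from the other strand, and no strand setting is given for the tabulation, so reads of the pair may not have been told apart in RNA-seq.

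The Kv1 genes lie in clusters. Kcna1 (chromosome 6, 126640397 to 126644796, minus strand) has Kcna6 at 63.5 kb and Kcna5 at 105 kb, and Kcna5 had at most 0.960 FPKM in any RNA-seq library. Kcna2 (chromosome 3, 107101567 to 107115005, plus strand) lies between Kcna3 and Kcna10. Kcna3, encoding Kv1.3, had 2.04 and 1.27 FPKM in OPCs against 2.09 and 2.99 FPKM in OLs, with a log2 difference of 0.60 (standard error 0.51, adjusted p = 0.398). Kcna10 was listed at 0 in all 4 RNA-seq libraries.

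Outside Kv1, the fast transient (A-type) channels of the Kv4 family split. Kcnd2, encoding Kv4.2, rose in RNA-seq from 24.6 and 21.1 to 37.8 and 36.2 FPKM, by 0.69 (standard error 0.18, adjusted p = 0.0317). Kcnd3, encoding Kv4.3, fell from 30.04 and 29.1 to 20.0 and 17.99 FPKM, with -0.64 (standard error 0.18, adjusted p = 0.0410). Neither pair of groups overlapped. Neither passed in footprints (adjusted p = 0.0831 for Kcnd2 and 0.235 for Kcnd3), and the fall of Kcnd3 was lost with median-ratio scaling (adjusted p = 0.0881).

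Other voltage-gated pore subunits fell. Kcnc4, which encodes Kv3.4, went from 3.80 and 3.36 FPKM of RNA in OPCs to 0.673 and 0.563 FPKM in OLs, a difference of -2.36 (standard error 0.52, adjusted p = 0.0204). Its footprints were 2.38 and 3.60 FPKM in OPCs against 0.431 and 0 FPKM in OLs, with an adjusted p of 0.125. Kcnh2, the ERG channel, had 3.41 and 3.24 FPKM in OPCs against 1.07 and 0.964 FPKM in OLs, a difference of -1.62 (standard error 0.47, adjusted p = 0.0457) that was lost with the replicate block (adjusted p = 0.0565). Kcng1, a silent subunit that modifies Kv2 channels, was listed at 0 in both OL cultures in RNA-seq and in footprints, while OPCs had 1.90 and 1.80 FPKM of RNA and 3.79 and 6.41 FPKM of footprints. It was tested in footprints alone, where it fell (adjusted p = 0.0339, and 0.0885 with the replicate block). Of the 28 voltage-gated pore subunits, 10 were tested in RNA-seq, of which 4 rose and 3 fell.

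Inward rectifiers moved in both directions. Kcnj16, encoding Kir5.1, which forms heteromers with Kir4.1, fell in RNA-seq from 30.9 and 34.0 FPKM in OPCs to 7.28 and 7.94 FPKM in OLs. Its footprints fell from 50.6 and 66.2 to 16.2 and 13.5 FPKM. The groups were well apart in both, with log2 differences of -2.08 (standard error 0.20, adjusted p = 0.00187) and -1.96 (standard error 0.23, adjusted p = 0.0127). Kcnj10 itself had 8.98 and 5.86 FPKM of RNA in OPCs against 31.7 and 12.6 FPKM in OLs, a difference of 1.45 (standard error 0.48, adjusted p = 0.0638) that did not pass, though it did with the replicate block (adjusted p = 0.00581). Its footprints rose from 33.4 and 22.9 to 149.7 and 93.8 FPKM, by 2.095 (standard error 0.33, adjusted p = 0.0214). The astrocyte markers, counted above, did not move as one in RNA-seq. S100b (5.33), Gfap (5.14) and Slc1a2 (1.79) were higher in OLs, Slc1a3 (-1.08) was lower, and Aldh1l1 (2.16), Aldoc (0.20) and Fgfr3 (-0.29) did not pass. Between the OL cultures, replicate 1 had more Kcnj10 and more Gfap. It also had more Aldh1l1 (5.41 and 1.27 FPKM), Slc1a2 (47.6 and 36.5), Aldoc (235 and 187), Fgfr3 (44.1 and 36.6) and S100b (675 and 633). Slc1a3 was at 74.3 and 74.3 FPKM. Higher values in replicate 1 were not particular to these genes. The median of all listed transcripts in RNA-seq of OLs was 6.84 and 5.45 FPKM, and the oligodendrocyte markers summed to 4082 and 3653 FPKM. The part of astrocyte RNA in the Kcnj10 values was not tested.

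Kcnj12, encoding Kir2.2, rose from 0.830 and 0.228 FPKM of RNA in OPCs to 9.92 and 6.26 FPKM in OLs, by 3.85 (standard error 0.66, adjusted p = 0.00929). Footprints of Kcnj12 rose from 0.422 and 0.628 to 9.59 and 7.59 FPKM (adjusted p = 0.0285, and 0.0731 with the replicate block). The related Kcnj2, encoding Kir2.1, had 1.66 and 2.70 FPKM in OPCs against 2.38 and 1.63 FPKM in OLs, groups that overlapped. Kcnj13, encoding Kir7.1, was listed at 0 in footprints of both OPC cultures and had 2.42 and 5.32 FPKM in OLs (adjusted p = 0.0482, and 0.116 with the replicate block). In RNA-seq it was above 0 in 1 library of each group, and 551 of its CDS bases overlap Gigyf2 on the other strand.

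The KChIP subunits and the HCN channel that passed were higher in OLs. Kcnip3, encoding the calcium sensor KChIP3 that binds Kv4 channels, rose from 26.8 and 20.4 to 45.9 and 40.4 FPKM of RNA and from 72.3 and 67.5 to 149 and 131 FPKM of footprints. These were differences of 0.88 (standard error 0.20, adjusted p = 0.0240) and 1.00 (standard error 0.13, adjusted p = 0.0148). Its relative Kcnip2 was listed at 0 in all 4 OPC libraries. In OLs its footprints were 6.52 and 9.21 FPKM, past the threshold (adjusted p = 0.0217, and 0.0600 with the replicate block), while its RNA was 8.47 and 0 FPKM (adjusted p = 0.315). About 23.5 reads lay behind the higher of these RNA values. Hcn2, a pacemaker channel opened by hyperpolarisation and bound by cyclic AMP, rose from 1.59 and 0.921 to 21.2 and 9.78 FPKM of RNA, by 3.46 (standard error 0.50, adjusted p = 0.00573). Hcn2 footprints rose from 1.20 and 1.37 to 22.0 and 14.1 FPKM, by 3.68 (standard error 0.51, adjusted p = 0.0169), and OLs and OPCs did not overlap. Hcn3 was under the minimum.

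Among calcium-activated channels, the beta subunit gene Kcnmb4, which slows the BK channel, fell in RNA-seq from 48.5 and 45.0 to 29.4 and 20.5 FPKM, with -0.93 (standard error 0.22, adjusted p = 0.0263). Of its 30-base words 74.1% also occur in other genes, and Kcnmb4os1 and Kcnmb4os2 overlap it on the other strand, so this value is uncertain. Kcnma1, the BK pore, had 2.50 and 2.91 FPKM in OPCs against 0.7498 and 0 FPKM in OLs (adjusted p = 0.0764, and 0.0442 with the replicate block). Kcnn3, the SK3 channel, had 2.84 and 1.78 FPKM in OPCs against 1.81 and 1.08 FPKM in OLs (adjusted p = 0.400). Of the 4 leak channels of the Kcnk family, Kcnk3 alone was tested and did not pass, and it had at most 1.68 FPKM of RNA in any library.

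**Figure D3:**
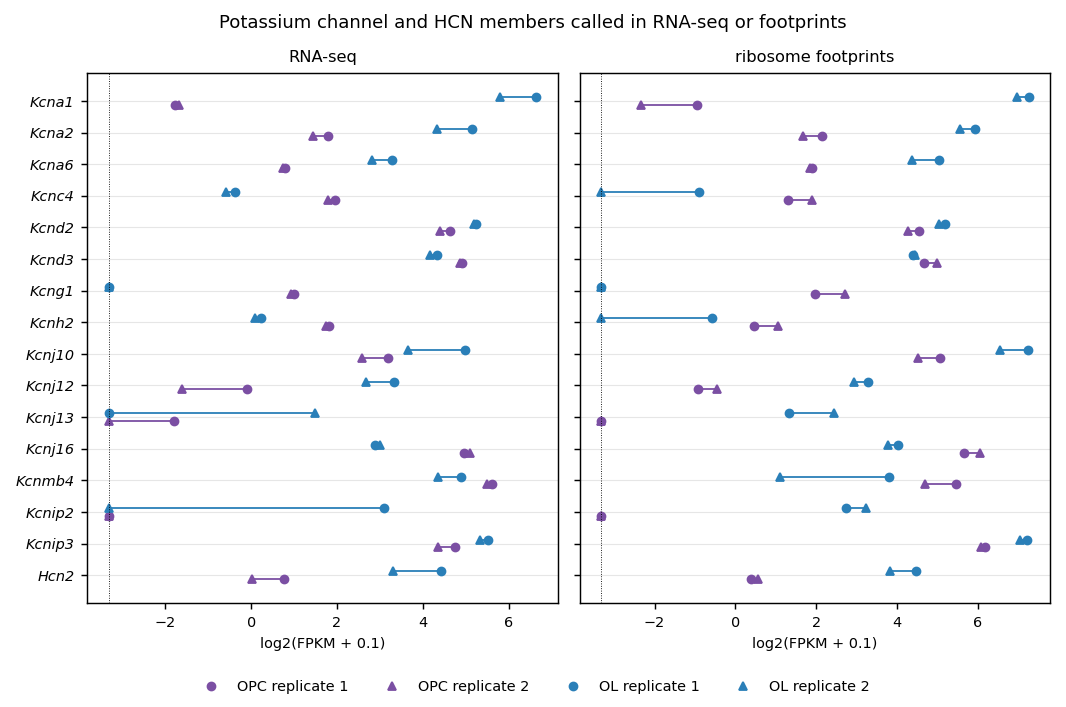
Levels of the 16 potassium channel and HCN members called in RNA-seq or footprints, as log2(FPKM + 0.1), in each of the 4 RNA-seq (left) and 4 footprint libraries (right). Circles are replicate 1 and triangles replicate 2, OPCs in purple and OLs in blue, lines join the replicates of a group, and the dotted line marks a value of 0 FPKM. Kcna1 shows the widest gap between the groups, and Kcnj16 lies lower in OLs in both panels.

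AMPA receptor subunits centred on Gria2, encoding GluA2, the subunit that makes AMPA receptors nearly impermeable to calcium. Gria2 had 7.85 and 11.1 FPKM of RNA in OPCs against 31.6 and 34.0 FPKM in OLs, and 13.7 and 16.8 FPKM of footprints in OPCs against 85.8 and 104 FPKM in OLs. The groups were apart in both, with log2 differences of 1.80 (standard error 0.24, adjusted p = 0.00453) and 2.63 (standard error 0.20, adjusted p = 0.00690). Gria3 did not pass, at 4.62 and 3.91 FPKM of RNA in OPCs against 6.53 and 0.989 FPKM in OLs, where the lower OL value came from replicate 2. Gria1 was above 0 in 1 library alone, RNA-seq of OL replicate 1, at 0.357 FPKM. Gria4 was not analysed here.

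Of the TARPs, Cacng7, encoding TARP gamma-7, rose from 12.97 and 12.8 to 36.4 and 29.7 FPKM of RNA and from 7.85 and 17.6 to 46.1 and 57.1 FPKM of footprints, by 1.34 (standard error 0.20, adjusted p = 0.00603) and 2.12 (standard error 0.45, adjusted p = 0.0430). Its neighbour at 25.9 kb on chromosome 7, Cacng8, encoding gamma-8, had 26.9 and 10.2 FPKM of RNA in OPCs against 7.73 and 3.51 FPKM in OLs. Its difference of -1.65 (standard error 0.57, adjusted p = 0.0744) lay in the other direction and did not pass, though it did with the replicate block (adjusted p = 0.00321). Cacng4, first among TARPs by mean RNA over all 4 libraries but below Cacng8 in OPCs and Cacng7 in OLs, had 20.8 and 14.0 FPKM in OPCs against 39.6 and 25.4 FPKM in OLs, and missed the threshold with 0.89 (standard error 0.31, adjusted p = 0.0719), which passed with the replicate block (adjusted p = 0.0110), as did its footprints (0.0470). Every OL value of Cacng4 was above every OPC value in RNA-seq and in footprints. Cacng5, 80.1 kb from Cacng4, was above 0 in OL replicate 1 alone.

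All 4 kainate receptor subunits were tested, and those that passed rose. Grik2, encoding the pore-forming subunit GluK2, rose from 2.42 and 2.53 FPKM of RNA in OPCs to 19.4 and 11.8 FPKM in OLs, and from 1.87 and 3.19 to 22.5 and 14.98 FPKM of footprints. Grik3, encoding GluK3, rose from 8.29 and 4.42 to 37.9 and 33.5 FPKM and from 10.6 and 7.93 to 66.1 and 66.1 FPKM. For neither gene did OLs and OPCs overlap. The log2 differences in RNA-seq were 2.56 (standard error 0.34, adjusted p = 0.00453) for Grik2 and 2.54 (standard error 0.33, adjusted p = 0.00427) for Grik3. In footprints they were 2.86 and 2.84 (adjusted p = 0.0273 and 0.00713), and that of Grik2 was lost with the replicate block (adjusted p = 0.0587).

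The auxiliary, high-affinity kainate subunits did not pass. Grik4 had 0.626 and 0.384 FPKM of RNA in OPCs against 3.30 and 1.85 FPKM in OLs (adjusted p = 0.0552). Grik5, the kainate subunit with the most RNA in OPCs and over all 4 libraries, though below Grik3 in OLs, had 27.3 and 18.6 FPKM in OPCs against 30.7 and 24.0 FPKM in OLs, groups that overlapped.

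NMDA receptor transcripts were close to the floor of the data. The obligatory subunit gene Grin1 had 0 and 0.133 FPKM of RNA in OPCs against 0.620 and 0.478 FPKM in OLs, and it overlaps an antisense gene over 1184 bases of its CDS. Grin2a, Grin2b, Grin2c and Grin3b reached at most 1.07 FPKM in any library. Grin3a, a glycine-binding subunit that lowers calcium flux and the highest of the family here, had 3.45 and 1.53 FPKM in OPCs against 5.79 and 1.43 FPKM in OLs, groups that overlapped (adjusted p = 0.769).

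Both metabotropic glutamate receptors that were tested fell in RNA-seq. Grm5, a receptor coupled to phospholipase C, had 49.3 and 23.3 FPKM of RNA in OPCs against 5.84 and 2.85 FPKM in OLs. Footprints of Grm5 went from 37.0 and 22.8 to 5.66 and 2.72 FPKM. All OL values were below all OPC values, and the log2 differences were -3.02 (standard error 0.48, adjusted p = 0.00749) and -2.85 (standard error 0.52, adjusted p = 0.0298). Grm3, which lowers cyclic AMP, fell in RNA-seq from 16.8 and 15.5 to 3.27 and 3.49 FPKM, with -2.23 (standard error 0.26, adjusted p = 0.00300). Its footprints were 14.9 and 16.2 FPKM in OPCs against 2.86 and 6.29 FPKM in OLs, and did not pass (adjusted p = 0.0767). Grm7 was under the minimum. The neuron markers Dcx and Tubb3, given above, were higher in the same OL cultures, and their part in the glutamate receptor values was not tested.

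**Figure D4:**
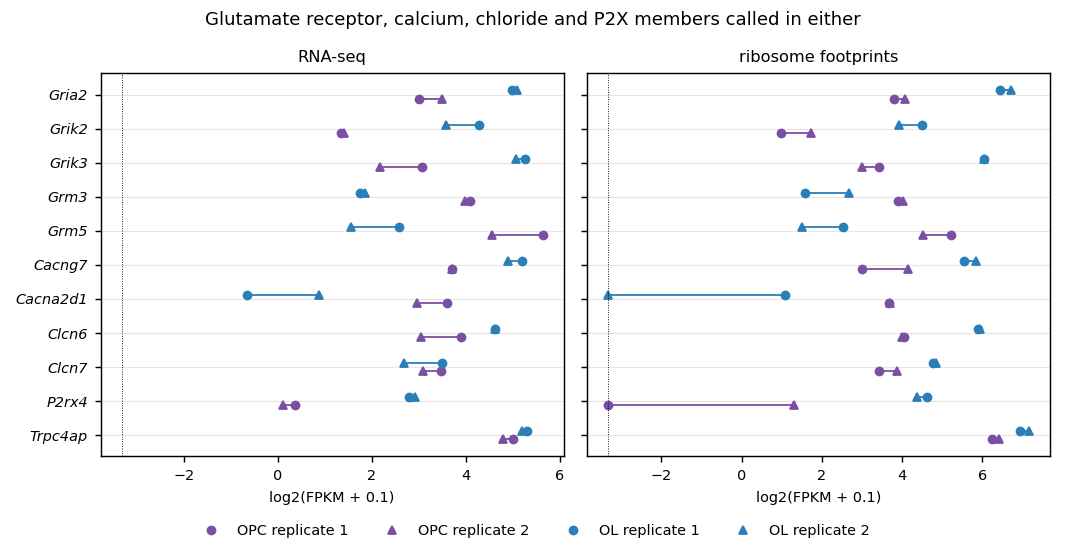
Levels of 11 other members called in RNA-seq or footprints, as log2(FPKM + 0.1), in each RNA-seq (left) and footprint library (right), drawn as for the potassium channels. Grm3 and Grm5 lie lower in OLs and Gria2, Grik2 and Grik3 higher, without overlap between the groups.

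Of the 11 GABA-A receptor subunits 2 were tested, and neither passed. Gabrg1, a gamma subunit, had 15.9 and 28.7 FPKM of RNA in OPCs against 14.1 and 12.9 FPKM in OLs, a difference of -0.66 (standard error 0.31, adjusted p = 0.158). Its footprints were 40.3 and 53.4 FPKM in OPCs against 33.2 and 37.7 FPKM in OLs. Both OL values of Gabrg1 were below both OPC values in RNA-seq and in footprints. A typical receptor needs an alpha subunit beside a gamma subunit. The alpha subunits among the members were Gabra2, Gabra3 and Gabra5, and none of them was above 0.670 FPKM in any library.

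Of the voltage-gated calcium channel genes, the alpha2delta subunit Cacna2d1, which brings pore subunits to the membrane, fell. Its RNA went from 12.0 and 7.73 FPKM in OPCs to 0.531 and 1.73 FPKM in OLs, with -3.18 (standard error 0.61, adjusted p = 0.0132). Its footprints were 12.6 and 12.8 FPKM in OPCs against 2.00 and 0 FPKM in OLs (adjusted p = 0.118). The L-type pore Cacna1c had 3.45 and 2.12 FPKM of RNA in OPCs against 0.915 and 1.84 FPKM in OLs (adjusted p = 0.225), and the P/Q-type pore Cacna1a 1.40 and 0.730 FPKM in OPCs against 2.00 and 1.72 FPKM in OLs (adjusted p = 0.337). The beta subunit Cacnb4 was highest in OL replicate 1, at 3.03 FPKM, and did not pass.

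Voltage-gated sodium channels were low in both cell types and none passed. Scn8a, encoding Nav1.6, had the most RNA, with 3.46 and 2.51 FPKM in OPCs against 5.13 and 5.45 FPKM in OLs, a difference of 0.82 (standard error 0.36, adjusted p = 0.129). Scn3a had 0.322 and 0.320 FPKM in OPCs against 1.64 and 1.53 FPKM in OLs, and Scn2a 0.372 and 0.149 FPKM in OPCs against 0.727 and 1.06 FPKM in OLs, both under the minimum. Part of the CDS of Scn2a (18.4% of its 30-base words) and of Scn3a (20.4%) also occurs in other genes, so reads of these paralogs may have been split between them. The auxiliary subunit Scn3b had 1.47 and 1.57 FPKM of RNA in OPCs against 1.83 and 1.27 FPKM in OLs.

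The ClC family holds plasma membrane chloride channels and endosomal or lysosomal proteins that exchange chloride for protons, and 5 of its 6 members were tested. Clcn6, of late endosomes, rose from 14.7 and 8.19 to 24.3 and 24.5 FPKM of RNA and from 16.5 and 15.8 to 58.9 and 61.3 FPKM of footprints, by 1.14 (standard error 0.31, adjusted p = 0.0380) and 1.89 (standard error 0.16, adjusted p = 0.00751). Clcn7, of lysosomes, rose in footprints from 10.7 and 14.5 to 27.3 and 28.5 FPKM, a difference of 1.16 (standard error 0.26, adjusted p = 0.0471) that was lost with the replicate block (adjusted p = 0.0769). The RNA of Clcn7 was 10.9 and 8.42 FPKM in OPCs against 11.2 and 6.36 FPKM in OLs. Clcn3, the most abundant of the family by RNA, had 17.4 and 20.9 FPKM in OPCs against 30.1 and 24.0 FPKM in OLs (adjusted p = 0.129). The plasma membrane channel Clcn2, whose loss is known to leave vacuoles in white matter, had 0.823 and 1.73 FPKM of RNA in OPCs against 4.03 and 0.533 FPKM in OLs, and its OL cultures lay on either side of the OPC cultures. Its footprints were apart, at 0.361 and 0.671 FPKM in OPCs against 5.45 and 3.33 FPKM in OLs, and did not pass (adjusted p = 0.0834).

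Trpm7, a channel fused to a kinase that carries magnesium and other divalent ions, was the most abundant TRP transcript, with 14.1 and 18.6 FPKM of RNA in OPCs against 13.9 and 13.3 FPKM in OLs (adjusted p = 0.434). Its footprints were low beside its RNA, at 2.92 and 3.48 FPKM in OPCs against 4.30 and 0.829 FPKM in OLs. Trpc1 had 1.04 and 0.773 FPKM of RNA in OPCs against 3.48 and 2.21 FPKM in OLs and did not pass (adjusted p = 0.0810). Trpc4ap, the adaptor that is no channel, rose in footprints from 75.3 and 84.8 to 122 and 144 FPKM, by 0.73 (standard error 0.15, adjusted p = 0.0375), which was lost with median-ratio scaling (adjusted p = 0.0761). The anoctamin Ano3 had at most 2.14 FPKM in any library, and Ano1 was not analysed here.

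Of the purine receptors, P2rx4, an ATP-gated cation channel, rose in RNA-seq from 1.19 and 0.977 FPKM in OPCs to 6.84 and 7.40 FPKM in OLs, by 2.61 (standard error 0.39, adjusted p = 0.00634). Its footprints were 0 and 2.35 FPKM in OPCs against 24.4 and 20.6 FPKM in OLs, apart but with a value of 0 in OPC replicate 1 (adjusted p = 0.0934). P2rx7, 23.3 kb away on chromosome 5, had 3.08 and 1.36 FPKM of RNA in OPCs against 0.734 and 0 FPKM in OLs, and 5.21 and 6.46 FPKM of footprints in OPCs against 0.966 and 0 FPKM in OLs. Every OL value of P2rx7 was below every OPC value, yet neither difference passed (adjusted p = 0.120 and 0.119). Among P2Y receptors, which couple to G proteins, P2ry1 alone was tested, at 4.91 and 5.42 FPKM of RNA in OPCs against 9.76 and 4.44 FPKM in OLs. P2ry12, a microglial marker elsewhere in the brain, had at most 0.142 FPKM of RNA and 0.416 FPKM of footprints.

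Some members were listed at 0 in every library of a group. In RNA-seq 22 members were at 0 in OLs alone, 18 in OPCs alone and a further 6 in both groups. Both cultures of the other group were above 0 for 7 of those at 0 in OLs, namely Grin2a, Kcnb2, Kcng1, Kcng3, Kcnh4, P2ry14 and Scn11a, and for 3 of those at 0 in OPCs, namely Kcnj3, Kcnq1 and P2ry2. Only Kcng1 had 1 FPKM or more in both. In footprints 8 members were at 0 in OLs alone, 21 in OPCs alone and a further 38 in both groups. Grin2c, Kcng1, Kcnj15, Kcnn4 and Scn7a were at 0 in both OL cultures and above 0 in both OPC cultures, and Kcnip2, Kcnj13 and Kcnq1 the reverse. Kcnn4, the intermediate conductance calcium-activated channel, had 1.55 and 2.39 FPKM of footprints in OPCs. Kcnq1, encoding Kv7.1, had 2.03 and 1.70 FPKM of footprints in OLs and 0.305 and 0.275 FPKM of RNA. Groups at 0 were not counted over all listed transcripts, so these counts cannot be read as a trait of the members. A value of 0 is a limit of depth and does not show absence.

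Ribosome density, the footprint FPKM of a transcript divided by its RNA-seq FPKM, asks whether the ribosomes on a transcript changed beyond its RNA. Footprints and RNA were scaled separately, so a density is a relative value. For the tested members above 0 in both, the median was 1.05 and 1.52 in the OPC cultures and 1.43 and 1.79 in the OL cultures. For all transcripts tested it was 1.72, 1.77, 2.02 and 1.95. Among these tested members Trpm7 was lowest in all 4 cultures, at 0.206 and 0.187 in OPCs and 0.309 and 0.0622 in OLs. None of the 47 members tested passed for a difference in density between OLs and OPCs with limma, where 1 of 8056 transcripts passed (0.0124%), and 3 members had an unadjusted p under 0.05. These were Gria2, with a density of 1.74 and 1.505 in OPCs against 2.71 and 3.07 in OLs, Clcn5, with 1.37 and 1.84 in OPCs against 3.16 and 4.82 in OLs, and Clcn7, with 0.977 and 1.72 in OPCs against 2.45 and 4.48 in OLs. Their log2 differences were 0.84, 1.29 and 1.35 with standard errors of 0.33, 0.45 and 0.48 and an adjusted p of 0.875 each. Without OL replicate 1, 6 members passed, Kcnip2 and Kcnma1 higher in OLs and Cacna2d1, Cacng8, Kcnmb4 and Scn3b lower, as did 863 of all 8056 transcripts (149 higher and 714 lower), a like share.

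**Figure D5:**
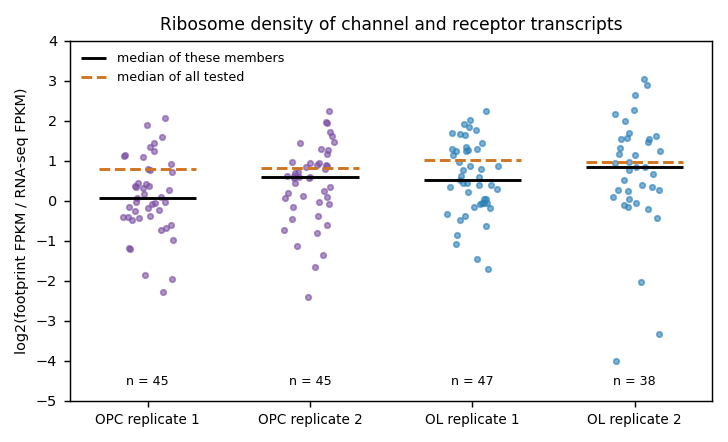
Ribosome density, log2 of footprint FPKM over RNA-seq FPKM, for the members tested that were above 0 in both libraries of a culture (45, 45, 47 and 38 points). Black lines are the members' medians and dashed lines those of all transcripts tested, which lie higher in each culture.

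Beyond their symbols, members shared long transcripts. The median transcript had 3989 bases and the median CDS 1908 bases, against 2919 and 1374 bases over all listed transcripts. The UUU share of Phe codons, a codon choice the study examined, had a median of 0.351 over members and 0.429 over all listed transcripts, and the AAA share of Lys codons 0.319 and 0.368. GC content of the CDS was alike, with medians of 52.9% and 53.1%. Single members ranged widely, with a UUU share of 0.747 in Trpm7, 0.682 in Kcnj16 and 0.286 in Kcna1.

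Other genes of the same functions were read from lists of related proteins. Of 23 other ion channels tested in RNA-seq, 5 rose and 6 fell, led by the inositol trisphosphate receptors, of which Itpr2 rose by 4.496 and Itpr1 fell by 4.52 on the log2 scale. Ttyh1 (2.73) and Lrrc8b (1.78), of anion channel families, rose as well, and Clic4 (-1.78) and the store-operated calcium sensor Stim2 (-1.39) fell. Of 5 gap junction connexins 3 rose, among them Gjb1 (4.87) and Gjc3 (4.74), both known from oligodendrocytes, and Gjc1 (-2.66) fell. Of 11 other transmitter receptors, 5 rose, with Gpr17 (5.23), the glycine receptor subunit Glrb (3.11) and the GABA-B subunit Gabbr2 (2.18) highest. Gpr17 is also counted above among the genes listed as OPC markers. The muscarinic receptor Chrm3 (-2.68) and the adenosine receptor Adora1 (-2.60) fell. Of 24 scaffold, auxiliary and trafficking proteins, 7 rose and 5 fell. Shisa9 (3.55), an AMPA receptor auxiliary protein, Shisa4 (2.67) and the scaffold Dlg1 (1.71) rose the most, and Homer2 (-2.23), Grip1 (-1.88) and Shisa5 (-1.51) fell the most. The median differences of these lists in RNA-seq were, in the same order, 0.15, 3.70, 0.34 and -0.17, beside -0.23 over all transcripts tested. In footprints the counts were 5 higher and 5 lower of 21 other ion channels, 3 and 0 of 5 connexins, 2 and 0 of 12 receptors, and 7 and 4 of 24 scaffold and auxiliary proteins.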

How the data were processed

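Footprints and RNA-seq of 2 OPC and 2 OL cultures gave 8 libraries. The authors deposited FPKM values, made by trimming adapters with fastx_clipper, mapping to GRCm38 and tabulating canonical coding transcripts of Gencode vM9, with no strand option named (HISAT2 2.1.0 and StringTie 1.3.5 in the submitters' processing notes). RNA-seq was taken per transcript length and footprints per CDS length. All 141 members were matched to Gencode vM21 (GRCm38) by transcript identifier, and coordinates are 1-based.

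OLs were compared with OPCs by limma 3.58.1 (R 4.3.3), using eBayes with a trend on log2 of FPKM plus 0.1, among transcripts averaging 1 FPKM or more in the 4 libraries of a kind. Tests were two-sided, with Benjamini-Hochberg adjustment across every transcript tested and a threshold of 0.05. The added 0.1 shrinks folds of low transcripts on this scale. A 0 in 1 replicate of a group can instead give a larger fold than the group means would. For ribosome density the effect tested was how far the OL to OPC difference departed between footprints and RNA-seq, over the 8 libraries. An exact permutation test of 2 cultures against 2 cannot reach the threshold, so p-values rest on the variance limma shares between transcripts. The fit was tested on simulated data. Python 3.11.15 and matplotlib 3.10.9 gave counts and figures.

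Read totals were not used here. Depth was estimated from the smallest step of FPKM times length among the lowest values of a library, and approximate read numbers take reads of 30 bases, so both may be off by a small whole factor. The main fit did not pair the cultures. In the replicate block, an alternative, same-numbered cultures were taken as pairs. The study states that the OLs were the differentiated counterparts of the OPC replicates. Deviations of same-numbered cultures from the group means had a Pearson correlation of 0.108 in RNA-seq and 0.0860 in footprints across transcripts. The alternatives were another pseudocount, other minimums, median-ratio scaling, no trend, the replicate block and leaving out each culture.

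The symbol rule uses no measured value, but the families and the other lists were chosen with earlier results of these data known. The text names each member past the threshold, the member with the most RNA in each role, a set of genes with known roles in the lineage, members listed at 0 in a whole group, and of the other lists the 3 largest rises and falls. Clcn5, Hcn3, Grin2b, Grin3b, Kcnma1, Kcnn3, Cacng8, Kcnj2, Grik4, Cacna1a, Kcna3, Kcna5, Kcna10, Scn3b and the marker genes were added after their values were seen. Some items are not reported here. Sequence in common with other genes was counted in words of 30 bases, taking transcripts on either strand.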

Additional observations from a re-analysis of the deposited data

How the results depend on the processing

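Leaving out each library in turn gave 1 to 21 members called in RNA-seq (1 to 14 higher and 0 to 11 lower) and 0 to 25 in footprints (0 to 13 higher and 0 to 12 lower), and in ribosome density 0 to 6 (0 to 2 higher and 0 to 4 lower). The low ends came without OPC replicate 1 or 2, where most of all transcripts also lost their call in RNA-seq, and every transcript did in footprints. A lone culture was assumed to vary like the other group. Without OL replicate 2, the shallowest culture, the median log2 difference in RNA-seq was 0.418 over the members and -0.135 over all transcripts. In footprints it was 0.856 over the members and 0.076 over all transcripts. Without OL replicate 1, the larger number of members lower in OLs (11 and 12) came with the shallower culture alone, and of all transcripts 1542 were then lower in RNA-seq and 2128 in footprints, against 1689 and 904 with every culture. The cause was not tested.

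With a pseudocount of 1, 5 members were lower in footprints in place of 3, and of all transcripts 1050 in place of 904. The planned settings that kept all libraries gave 19 to 25 members in RNA-seq and 14 to 23 in footprints, and 0 in ribosome density. With the replicate block, which uses the pairing of OL and OPC cultures, 25 members were called in RNA-seq and 14 in footprints. Of all transcripts tested, 3323 of 8346 were then called in RNA-seq and 1735 of 8342 in footprints. Among the members followed by name, it changed no call beyond those given beside their values. In RNA-seq 16 of the 22 called members, and in footprints 8 of 20, stayed past the threshold under every setting that kept all libraries. No called value changed sign. A culture block in the ribosome density fit, chosen after seeing the data, called 0 members and 0 of all transcripts, with 3 members at an unadjusted p under 0.05. Low levels left 83 of 141 members under both minimums, and these were not tested. The shallowest libraries, those of OL replicate 2, listed the most members at 0, and the part of depth in this was not tested.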
